A study of Mus musculus with 9 samples.

Results

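Of the 34637 genes with a name and an FPKM value in the deposited table, 10 were taken because their products make up or report on a pair of chemical-sensing systems of the skin, the aryl hydrocarbon receptor (AhR) and the transcription factor Nrf2. They were matched by symbol and joined to the count table by gene identifier, by a rule that uses no measured value. The AhR arm held 5 genes, namely the receptor Ahr and its targets Ahrr, Cyp1a1, Cyp1b1 and Tiparp. The Nrf2 arm held 5 genes, namely Nfe2l2, which encodes Nrf2, and its targets Nqo1, Hmox1, Gclm and Srxn1. All 10 were found and all 10 passed the filter on low counts.

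The AhR is a receptor for planar aromatic molecules, among them combustion products, plant compounds and breakdown products of tryptophan. On binding a ligand it leaves its Hsp90 chaperones, pairs with Arnt in the nucleus and switches on genes that carry a xenobiotic response element (XRE), and in the epidermis it takes part in keratinocyte differentiation and barrier formation. Nrf2 is kept low by Keap1, escapes when electrophiles or oxidants modify Keap1, pairs with small Maf proteins and switches on genes that carry an antioxidant response element (ARE). The sensitiser of this model, DNCB, is itself an electrophile that reacts with glutathione and with skin proteins.

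The RNA came from back skin of male C57BL/6 mice aged 6 to 8 weeks. They were shaved, sensitised with 1% DNCB on day 1 and challenged repeatedly with 0.5% DNCB from day 4. The last challenge that the paper lists came days before the mice were killed on day 28. The FJDHF-M group was fed Fangji Dihuang formulation (FJDHF), a herbal decoction, at the study's medium dose by mouth daily after day 7 until day 28, and the Model group was given water. Libraries of 5 FJDHF-M and 4 Model mice were compared, so every animal had been exposed to DNCB and mice without it were not analysed here. The question was whether feeding FJDHF was accompanied by other levels of the xenobiotic response genes in inflamed skin. The columns MR1, MR3, MR3_4, MR4_5 and MR5 were read as FJDHF-M and MXL1, MXL12, MXL3_4 and MXL_3 as Model, because 5 and 4 columns carry these letters and the Chinese for model begins with MX, and every direction below rests on that reading. Codes with more than 1 number could be pools of mice, so n counts libraries, and the p-values measure only the spread between these libraries.

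Total counts were 74648669 to 79474215 per library, and the members had between 339 and 22509 counts in a library. The libraries stood apart in their dependence on base composition. In a principal component analysis of 11059 well expressed genes, 47.0% of the variance lay on component 1, which correlated with the GC content of the transcript with a size of 0.668 across genes, which are not independent replicates. Transcripts over 60% GC deviated from their mean over libraries by a median of 0.89 in MXL1 and 0.70 in MR3 and by a median of -0.99 in MXL12 and -1.04 in MR5 on the log2 scale. Each group held libraries of either kind, and the mean slopes of the groups differed by less than the spread between libraries (exact permutation test, two-sided p = 0.738). Each difference was therefore also estimated with the GC trend of every library as an offset. Skeletal muscle markers also varied widely between libraries, with a mean log2 CPM (counts scaled to a fixed library total) of 5.60 to 10.7 over 7 genes.

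**Figure D1:**
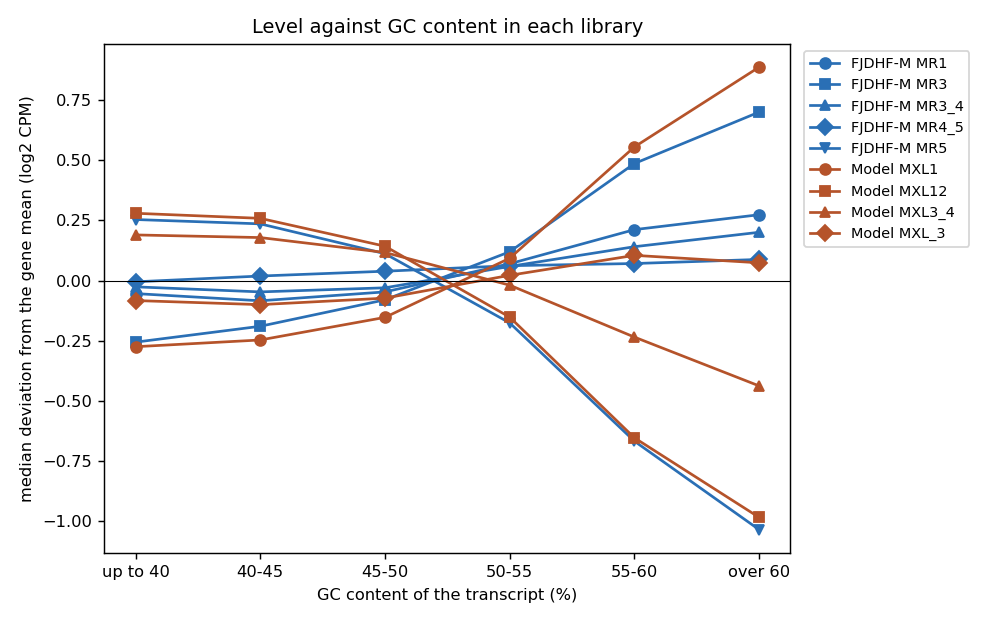
Median deviation of well expressed genes from their mean over the 9 libraries (log2 CPM, y axis) in classes of transcript GC content (%, x axis), 1 line per library, coloured by group. MXL1 and MR3 rise to 0.89 and 0.70 above 60% GC, while MXL12 and MR5 fall to -0.99 and -1.04, so both groups hold lines of both kinds.

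The core letters of both response elements were looked for in the 250 bases before the RefSeq start site of each member, on both strands, with GCGTG as the XRE core and TGACNNNGC or TGAGNNNGC as the ARE core. Of the 10 members, 8 had an entry in the promoter table (GRCm38.p6), all but Ahr and Hmox1. The XRE core was found at least once before 6 of these 8 genes, namely Ahrr, Cyp1a1, Cyp1b1, Tiparp, Gclm and Srxn1, against 28.2% of 32851 promoters of the same length. The ARE core was found before 4 of the 8, namely Tiparp, Nfe2l2, Gclm and Srxn1, against 23% of all promoters. Ahrr and Gclm each held 3 XRE cores, where 2.77% of promoters held at least 3, and Srxn1 held 2 ARE cores, where 3.18% held at least 2. The 8 promoters ranged from 53.2% GC (Nqo1) to 78.4% GC (Gclm), and the shares over all promoters were not matched for GC content. A match of letters is a description and not a binding site. The promoters of both AhR-induced cytochromes and of Srxn1 are shown as examples. They carry 1 XRE core each, alone or with the ARE core, as does Tiparp, which is not shown. They lie at chr9:57697363-57697612 on the plus strand (Cyp1a1), chr17:79715062-79715311 on the minus strand (Cyp1b1) and chr2:152105274-152105523 on the plus strand (Srxn1), run 5' to 3' along the gene's own strand, and have the core letters in capitals.
Cyp1a1: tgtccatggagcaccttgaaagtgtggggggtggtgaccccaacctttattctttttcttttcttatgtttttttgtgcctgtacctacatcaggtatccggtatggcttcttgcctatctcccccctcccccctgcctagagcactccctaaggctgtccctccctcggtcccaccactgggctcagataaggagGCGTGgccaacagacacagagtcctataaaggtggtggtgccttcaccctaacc
Cyp1b1: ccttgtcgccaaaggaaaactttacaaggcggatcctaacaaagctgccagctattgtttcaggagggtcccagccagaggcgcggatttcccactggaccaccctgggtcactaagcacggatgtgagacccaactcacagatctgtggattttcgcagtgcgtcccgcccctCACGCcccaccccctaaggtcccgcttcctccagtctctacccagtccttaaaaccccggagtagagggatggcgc
Srxn1: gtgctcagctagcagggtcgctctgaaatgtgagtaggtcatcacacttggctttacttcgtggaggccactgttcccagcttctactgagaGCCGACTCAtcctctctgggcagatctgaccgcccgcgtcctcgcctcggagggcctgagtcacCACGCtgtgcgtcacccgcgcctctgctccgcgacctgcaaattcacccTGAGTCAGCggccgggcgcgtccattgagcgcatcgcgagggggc
The XRE core began 54 bases before the start of Cyp1a1, 76 bases before that of Cyp1b1 and 94 bases before that of Srxn1. In Cyp1b1 and Srxn1 it reads on the opposite strand. The ARE cores of Srxn1 began 158 and 45 bases before its start.

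All 10 genes were detected in every library. On the length-corrected FPKM scale, the highest mean levels over the 9 libraries were those of Hmox1 (40.4) and Nfe2l2 (40.3), followed by Cyp1b1 (25.4), Srxn1 (24.0), Tiparp (13.8), Ahr (12.9), Gclm (10.7), Nqo1 (7.36), Cyp1a1 (5.97) and Ahrr (0.75). Neighbours in this order overlapped in their range over libraries down to Cyp1a1, and Ahrr lay apart, with 0.441 to 1.11 FPKM against 2.79 to 10.3 FPKM for Cyp1a1. In these bulk skin samples, fewer cells of a type and less RNA per cell cannot be told apart.

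None of the 10 genes differed between the groups at an adjusted p under 0.05 in edgeR's quasi-likelihood test, in which all 10 had an adjusted p of 1.00. Across all 20817 tested genes 0 passed that threshold, 319 had an unadjusted p under 0.05, DESeq2 called 2 and limma called 0, no member among them. At an unadjusted p under 0.05, 1 of the 10 members was found, Cyp1b1, where 1.53% of all tested genes were. The log2 fold change (FJDHF-M minus Model) was above 0 for 2 members and below 0 for 8, with a median of -0.05, while 44.1% of all tested genes lay above 0 and their median was -0.03. In the AhR arm 0 of 5 genes lay above 0 (median -0.13), and in the Nrf2 arm 2 of 5 did (median -0.01). In the exact permutation test on single levels 0 of the 10 had a p under 0.05, where 1.93% of all tested genes did. The levels of the groups overlapped for all 10 genes, where 0.514% of all tested genes had groups that did not overlap. The 95% intervals of the fold changes show how large a difference these libraries leave possible for each gene.

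**Figure D2:**
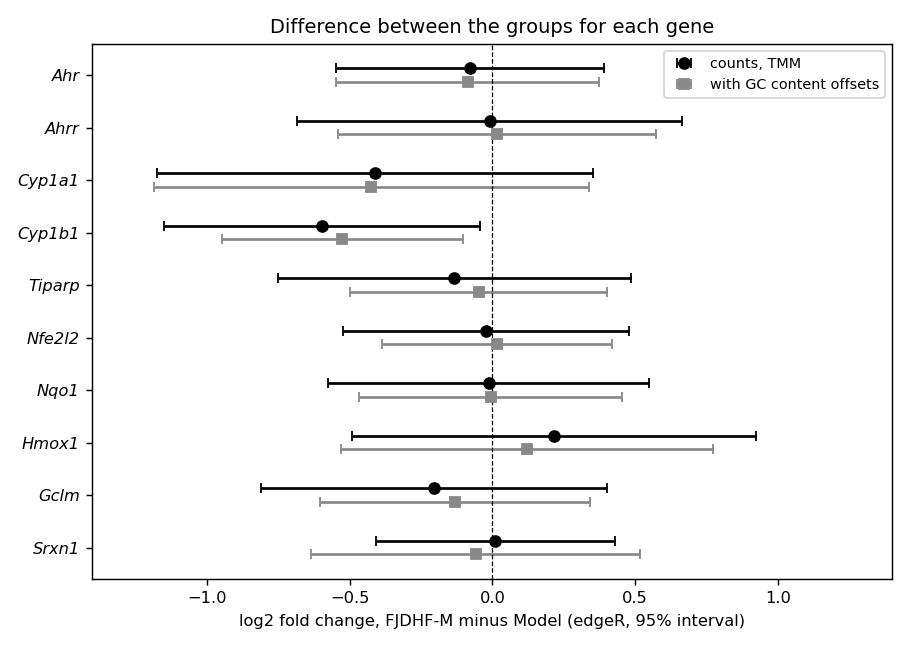
Log2 fold change of each gene (FJDHF-M minus Model, x axis) with its 95% interval from edgeR, as fitted to the counts (black) and with GC content offsets (grey). The intervals of Cyp1b1 lie below 0 in both fits, and those of the other 9 genes include 0.

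Cyp1b1, a cytochrome P450 that AhR induces and that fibroblasts and other stromal cells also express without a ligand, showed the largest difference of the 10 genes. It stood at 124, 298, 216 and 131 CPM in the Model libraries MXL1, MXL12, MXL3_4 and MXL_3. In the FJDHF-M libraries MR1, MR3, MR3_4, MR4_5 and MR5 it stood at 130.5, 129, 121, 115 and 140.0 CPM. The 5 FJDHF-M libraries were thus close together, a pair of Model libraries lay above all of them, and the other Model pair lay within their range. The Model mean was 192 ± 81.9 CPM (SD, n = 4), and that of FJDHF-M was 127 ± 9.51 CPM (SD, n = 5). This gave a log2 fold change of -0.60 (SE 0.25, 95% interval -1.15 to -0.04, edgeR unadjusted p = 0.0367, adjusted p = 1.00), and the exact permutation test on log2(CPM + 0.5) gave a two-sided p of 0.0714, where groups of 4 and 5 allow 0.00794 at the smallest. The gene (chr17:79701537-79715061 in GRCm38, minus strand) has no annotated overlap with another exon.

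The difference in Cyp1b1 rested on MXL12 and MXL3_4. Without MXL12 the log2 fold change was -0.31 (edgeR unadjusted p = 0.159), and without MXL3_4 it was -0.54 (edgeR unadjusted p = 0.0860). The unadjusted p also rose above 0.05 without MR1 (0.0606), MR3 (0.0559), MR3_4 (0.0671) or MR4_5 (0.0728), with log2 fold changes from -0.62 to -0.56. MXL12 was also the library with the most RNA of neutrophil markers, with a summed level of 522.7 CPM over 7 markers, all detected, against 24.9 to 78.5 CPM in the other Model libraries and 36.9 to 144.9 CPM in the FJDHF-M group, and the part of these cells in the result was not tested. With the GC trend as an offset, Cyp1b1 had a log2 fold change of -0.53 (SE 0.19, unadjusted p = 0.0196, adjusted p = 1.00 in edgeR), and it was again the 1 member under 0.05, where 1.91% of 20787 genes were. The exact permutation test gave 0.0159 after the GC trend was subtracted, and Cyp1b1 was the 1 member of 10 under 0.05, where 2.29% of 20787 genes were. Its spread within groups narrowed from 0.40 to 0.30 on the log2 scale with that correction. The correction did not narrow every member. The spread of Srxn1 widened from 0.28 to 0.43, that of Cyp1a1 went from 0.57 to 0.58, and the remaining members narrowed.

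Cyp1a1, the classical AhR reporter gene, which oxidises aromatic ligands of the receptor, stood at 29.4, 18.9, 22.7 and 9.94 CPM in the Model libraries MXL1, MXL12, MXL3_4 and MXL_3. In the FJDHF-M libraries MR1, MR3, MR3_4, MR4_5 and MR5 it stood at 19.7, 18.2, 8.52, 11.4 and 18.3 CPM. MXL1 and MXL3_4 were the highest, MXL_3 and MR3_4 were the lowest, and the groups overlapped over most of their range. The log2 fold change of -0.41 (SE 0.34, 95% interval -1.17 to 0.35) did not pass edgeR's test (unadjusted p = 0.258), and its fold change interval ran from 0.443 to 1.28. Cyp1a1 had the widest spread within groups of the 10 genes, 0.57 on the log2 scale, above that of 71.5% of genes of like level. The gene lies at chr9:57687928-57703824 on the plus strand.

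The receptor gene Ahr (chr12:35497974-35535038, minus strand) averaged 86.1 ± 19.6 CPM (SD, n = 4) in Model skin against 81.6 ± 18.6 CPM (SD, n = 5) with FJDHF-M. Its log2 fold change was -0.08 with a 95% interval of -0.55 to 0.39. Ahrr (chr13:74211118-74292331, minus strand), which encodes the repressor that competes with AhR for Arnt, was at 7.49 ± 1.24 CPM and 7.45 ± 2.72 CPM in the same order of groups. Its log2 fold change was -0.01 with a 95% interval of -0.68 to 0.66. Reads of Ahr may include those of Gm48236, whose exons overlap it on the opposite strand. The paper describes a strand-specific library, but the use of strand in counting is not given in the sources used here.

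Tiparp, an ADP-ribosyltransferase that AhR induces and that in turn dampens the receptor, stood at 47.3, 115.5, 55.3 and 47.7 CPM in the Model libraries MXL1, MXL12, MXL3_4 and MXL_3. In the FJDHF-M libraries MR1, MR3, MR3_4, MR4_5 and MR5 it stood at 57.7, 45.7, 61.2, 69.5 and 68.7 CPM. MXL12 lay far above all other libraries, and the remaining Model libraries lay in the lower part of the FJDHF-M range. Its log2 fold change was -0.13 (95% interval -0.75 to 0.48) with MXL12 and 0.27 without it (edgeR unadjusted p = 0.154), so that 1 library set the sign. The gene (chr3:65528410-65555518, plus strand) shares exon sequence with 4931440P22Rik on the opposite strand.

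**Figure D3:**
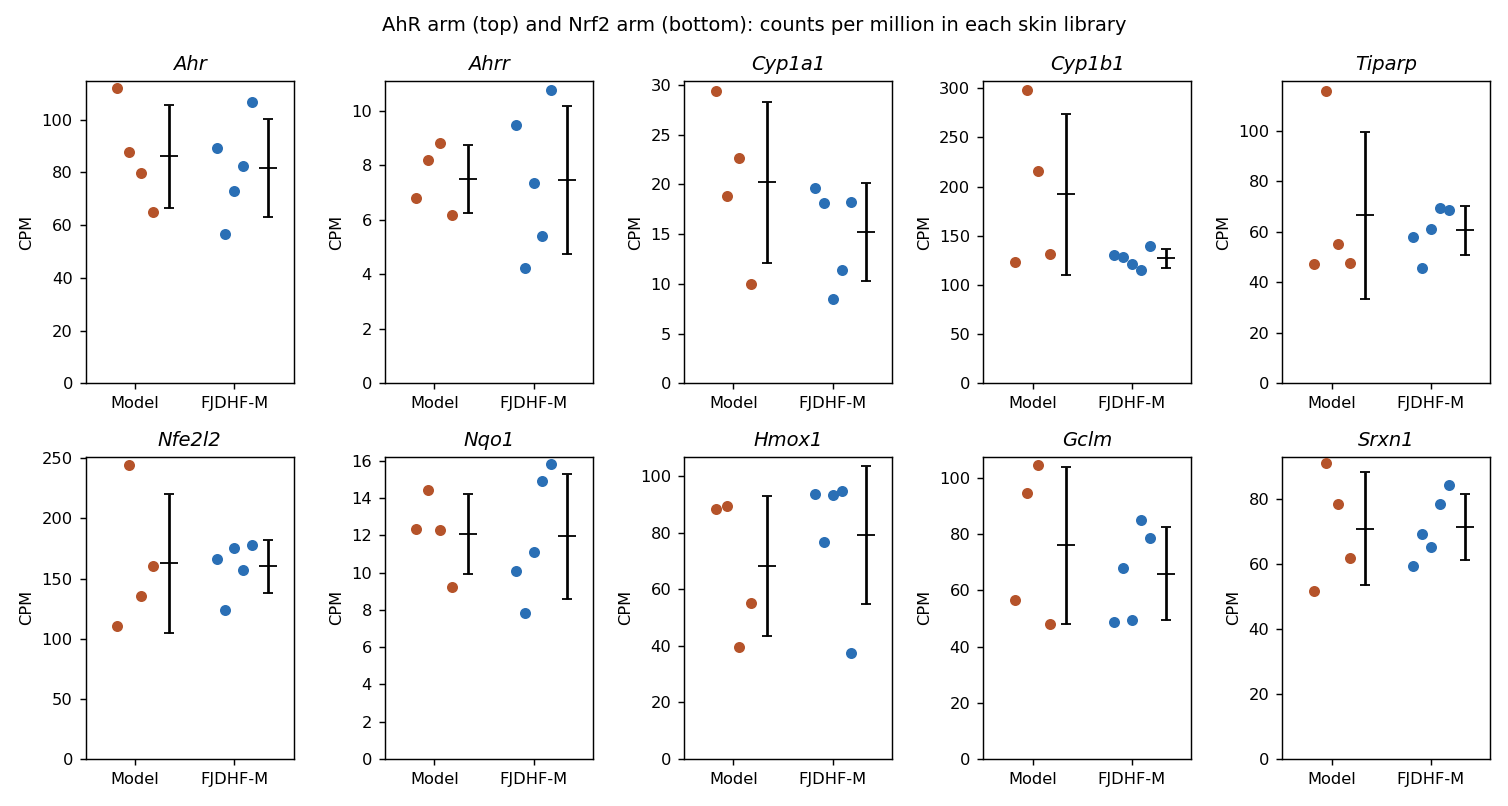
CPM (y axis, from 0) of the 10 genes in each library of the Model and FJDHF-M groups, with the mean and SD beside the points (n = 4 and 5). The groups overlap in every panel. The highest Model points of Cyp1b1 (298), Tiparp (115.5) and Nfe2l2 (244) are the same library, MXL12. For Cyp1b1, MXL3_4 (216) also lies above all FJDHF-M points.

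Nfe2l2, the gene of Nrf2 (chr2:75675513-75704641, minus strand), stood at 111, 244, 135 and 160.2 CPM in the Model libraries MXL1, MXL12, MXL3_4 and MXL_3. In the FJDHF-M libraries MR1, MR3, MR3_4, MR4_5 and MR5 it stood at 166.5, 124, 175, 157 and 178 CPM. MXL12 was the highest and MXL1 the lowest, so that the Model libraries enclosed the whole FJDHF-M range. For Nfe2l2 the log2 fold change was -0.02 (SE 0.23, 95% interval -0.52 to 0.48), and without MXL12 it was 0.24 (edgeR unadjusted p = 0.216). Nrf2 is controlled largely at the level of its protein, which was not measured here.

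Hmox1, haem oxygenase, which breaks haem down to biliverdin, iron and carbon monoxide, had the highest log2 fold change of the 10 genes. It stood at 88.4, 89.5, 39.7 and 55.1 CPM in the Model libraries MXL1, MXL12, MXL3_4 and MXL_3. In the FJDHF-M libraries MR1, MR3, MR3_4, MR4_5 and MR5 it stood at 93.7, 76.6, 93.3, 94.9 and 37.6 CPM. The lowest value of all was that of MR5, and 3 FJDHF-M libraries lay above every Model library, the highest of which was 89.5 CPM. The log2 fold change of 0.22 (SE 0.32, 95% interval -0.49 to 0.92) was smaller than the spread between libraries (edgeR unadjusted p = 0.511). Hmox1 (chr8:75093621-75100589, plus strand) varied within groups by 0.57 on the log2 scale, more than 86.5% of genes of like level.

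Nqo1, a quinone reductase induced through Nrf2 and through AhR, stood at 12.3, 14.5, 12.3 and 9.22 CPM in the Model libraries MXL1, MXL12, MXL3_4 and MXL_3. In the FJDHF-M libraries MR1, MR3, MR3_4, MR4_5 and MR5 it stood at 10.1, 7.84, 11.1, 14.9 and 15.8 CPM. The FJDHF-M libraries enclosed the Model range, and the means of 12.1 ± 2.16 and 12.0 ± 3.35 CPM (SD, n = 4 and 5) lay together, with a log2 fold change of -0.01 (95% interval -0.58 to 0.55 in edgeR). The gene lies at chr8:107388225-107403206 on the minus strand.

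Gclm, the modifier subunit of the enzyme that starts glutathione synthesis, and Srxn1, sulfiredoxin, which restores oxidised peroxiredoxins, completed the Nrf2 arm. Gclm (chr3:122245557-122270732, plus strand) was at 76.0 ± 27.9 CPM in the Model group and 66.0 ± 16.6 CPM in the FJDHF-M group (SD, n = 4 and 5), a log2 fold change of -0.21 (95% interval -0.81 to 0.40). Srxn1 (chr2:152105516-152109322, plus strand) was at 70.8 ± 17.4 CPM and 71.4 ± 10.2 CPM, a log2 fold change of 0.01 (95% interval -0.41 to 0.43). In this fit Srxn1 had the narrowest interval of the 10 genes. Exons of Gm6061 and Gm17494 overlap Gclm, the former on the same strand, so its counts may hold reads of either.

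The wider pathways were read from 61 further genes in 9 lists, of which 57 were tested. Of these, 30 lay above 0 and 27 below, with a median log2 fold change of 0.02, and 1 had an unadjusted p under 0.05, which is 1.75% against 1.53% of all tested genes. That gene was Tdo2, tryptophan 2,3-dioxygenase, which opens the path from tryptophan to kynurenine, a source of AhR ligands. Tdo2 stood at 10.7, 3.23, 10.3 and 15.2 CPM in the Model libraries MXL1, MXL12, MXL3_4 and MXL_3 and at 4.49, 5.39, 2.81, 1.66 and 5.62 CPM in the FJDHF-M libraries in the order above. All 5 FJDHF-M libraries lay below 3 of the Model libraries and MXL12 lay among them. The log2 fold change was -1.30 (SE 0.47, unadjusted p = 0.0196, adjusted p = 1.00 in edgeR), the exact permutation test gave a two-sided p of 0.0635, and without MXL_3 the edgeR p was 0.0672 with a log2 fold change of -1.01. With the score of differentiated keratinocyte markers as a covariate it was -1.03 (edgeR unadjusted p = 0.192). The other tested enzymes of that list ranged from -0.29 (Kynu, kynureninase) to 0.84 (Ido2, an indoleamine dioxygenase), and Ido1 and Ido2 were near the detection limit.

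In the AhR machinery, 0 of 6 partner genes had an unadjusted p under 0.05. They ranged from -0.30 for Arnt2, a relative of the dimer partner Arnt, to 0.06 for Hsp90ab1, the chaperone. Of 4 further AhR targets tested, Ugt1a6b was the lowest (-0.59, SE 0.39) and Xdh, xanthine dehydrogenase, the highest (0.08, SE 0.14), and the exons that Ugt1a6a and Ugt1a6b share could split their reads. Of 2 other xenobiotic receptor genes tested, Nr1i3 (CAR) had 0.35 (SE 0.75) and Rxra had 0.03 (SE 0.42).

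The 11 regulators of Nrf2 lay between -0.05 (Cul3, the scaffold of the ligase that degrades Nrf2) and 0.18 (Maff, a small Maf partner), and 0 of 11 had an unadjusted p under 0.05. Keap1 itself had a log2 fold change of 0.08 (SE 0.37). The same count was 0 of 7 in glutathione synthesis and the thioredoxin system, from -0.38 (Slc7a11, the cystine carrier, SE 0.56) to 0.23 (Txn1, thioredoxin, SE 0.19). It was 0 of 6 among NADPH-producing enzymes, from -0.15 (Idh1) to 0.21 (Tkt, transketolase), and 0 of 9 among detoxification and export genes, from -0.48 (Osgin1, SE 0.83) to 0.34 (Abcc2, an export pump, SE 0.62). Among 7 genes of haem and iron handling it was 0, from -0.17 (Ftl1, ferritin light chain, SE 0.60) to 0.25 (Blvrb, biliverdin reductase B, SE 0.59).

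The members were next set against each other across the 9 libraries, in 45 pairs of log2(CPM + 0.5) levels. Pearson's r was above 0 in 34 of 45 pairs with a median of 0.32, the median being 0.36 in the 20 pairs within an arm and 0.23 in the 25 pairs across the arms. In exact permutation tests 6 pairs had a p under 0.05 and 0 had a Benjamini-Hochberg adjusted p under 0.05 over the 45. Pairs of genes outside the members were not counted, so the numbers of pairs here and below have no background share and are descriptions. The highest r was that of Tiparp and Nfe2l2, at 0.869 (rho 0.783), with exact permutation p of 0.00288 and 0.0172 and adjusted values of 0.130 and 0.452, and r was 0.873 for deviations from the group means. It was 0.632 without MR3 and MXL12, and 0.741 after the GC trend was subtracted. Gclm and Srxn1 followed with r = 0.824 (rho 0.767), exact permutation p of 0.00957 and 0.0214, adjusted 0.215 and 0.452, and r = 0.856 without MXL3_4 and MXL_3. After the GC trend was subtracted, that r was 0.479 (exact permutation p = 0.192). The subtracted trends of Gclm and Srxn1 had opposite signs in MXL12 (0.26 and -0.23) and MR5 (0.23 and -0.26). The spread of Srxn1 within groups widened from 0.28 to 0.43 with the subtraction. What lowered r was not tested. Cyp1b1 and Gclm had r = 0.657 (rho 0.367), exact permutation p of 0.0360 and 0.336 and adjusted 0.271 and 0.672. That relation rested on MXL12 and MXL3_4, since r was -0.10 without them.

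With the GC trend subtracted, r was above 0 in 30 of the 45 pairs, the median was 0.15, and 3 pairs had an exact permutation p under 0.05, with 0 after adjustment. The highest was then Tiparp and Hmox1, with r = 0.758 (rho 0.900), exact permutation p of 0.0108 and 0.00203 and adjusted values of 0.426 and 0.0913. Leaving out MR4_5 and MXL12 gave r = 0.745 with the trend subtracted. Without the subtraction Tiparp and Hmox1 had r = 0.158 (rho 0.350) over the 9 libraries, with an exact permutation p of 0.703 for r. The subtracted trends of Tiparp and Hmox1 also had opposite signs in MXL12 (0.27 and -0.23) and MR5 (0.25 and -0.26). What raised r was not tested. Cyp1a1 and Cyp1b1, both AhR targets, had r = 0.339 (rho 0.383) from log2 CPM and r = 0.372 (rho 0.633) after the subtraction, with exact permutation p of 0.355 and 0.31 for r, adjusted 0.621 and 0.764, and r of 0.189 and 0.271 with the 2 farthest libraries left out.

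**Figure D4:**
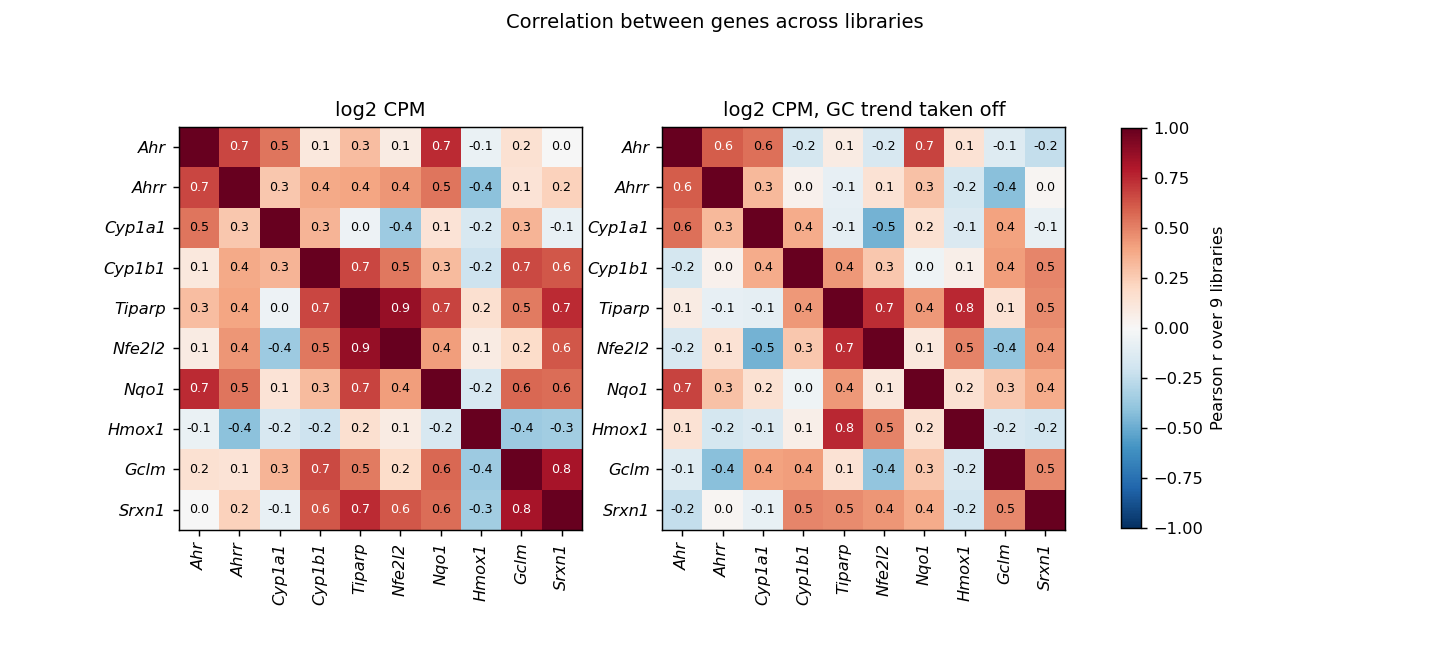
Pearson's r over 9 libraries between the levels of each pair of genes, from log2 CPM (left) and after the GC trend of each library was subtracted (right), from -1 (blue) to 1 (red). Gclm and Srxn1 pale from 0.8 to 0.5, and the median over 45 pairs drops from 0.32 to 0.15.

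The 3 tested genes with the highest r to Cyp1a1 over the 9 libraries were A4gnt (0.968), Cyp17a1 (0.964) and Awat1 (0.949), the last a wax synthase of the sebaceous gland. Those nearest to Nqo1 were Bmpr1b (0.955), Gm14549 (0.949) and Pqlc3 (0.930), and those nearest to Hmox1 were Stat3 (0.955), Megf11 (0.944) and Gm47815 (0.907). These are the highest of 20817 values each and are given as a description.

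Marker genes of 13 skin cell types were used to see which cells the members' levels moved with, giving 130 pairs of a member and a marker score (the mean log2(CPM + 0.5) of a list). Of these, 12 had an exact permutation p under 0.05 for r and 0 had an adjusted p under 0.05. The share for genes outside the members was not computed. The highest was that of Cyp1a1 and the sebocyte score, with r = 0.888 (rho 0.867), exact permutation p of 0.00205 and 0.00451 and adjusted values of 0.204 and 0.293 over the 130 pairs. It was 0.894 for deviations from the group means, 0.808 without MXL1 and MXL3_4, and 0.881 after the GC trend was subtracted. All 4 sebocyte markers were detected, with a summed level of 226 to 763 CPM in the Model group and 218 to 577 CPM in the FJDHF-M group, and all 4 had log2 fold changes below 0 (median -0.36), none with an unadjusted p under 0.05 in edgeR. Their part in the level of Cyp1a1 was not tested beyond this correlation.

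**Figure D5:**
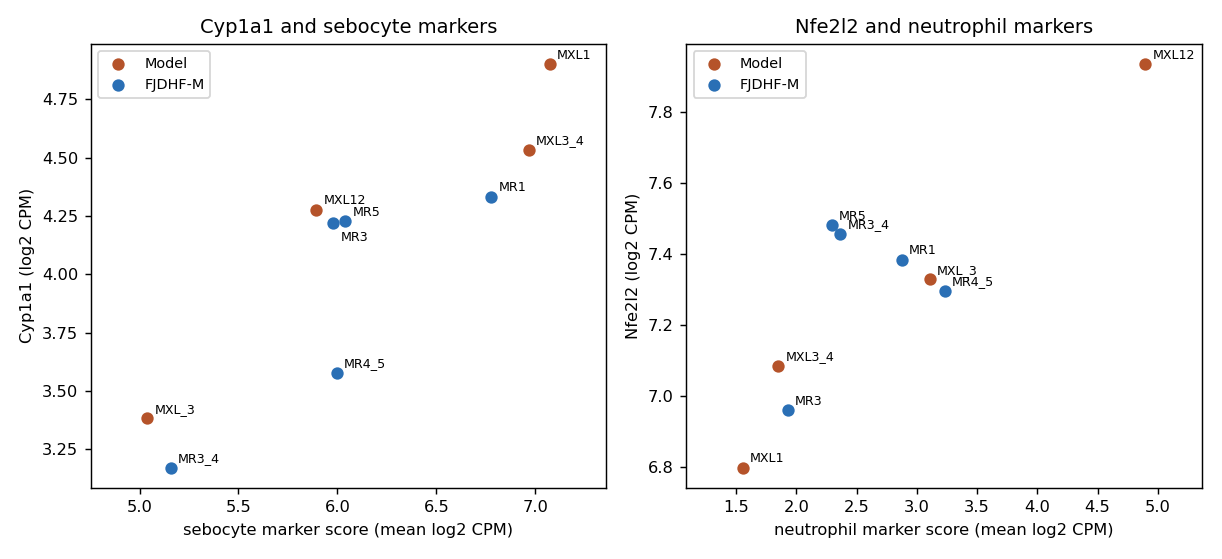
Log2 CPM (y axes) of Cyp1a1 against the sebocyte marker score (left) and of Nfe2l2 against the neutrophil marker score (right), both scores being mean log2 CPM, 1 point per library, coloured by group. Cyp1a1 follows the sebocyte score in both groups (r = 0.888), and on the right MXL12 lies farthest to the upper right (r = 0.860 with it).

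Nfe2l2 correlated with the neutrophil score, with r = 0.860 (rho 0.650), exact permutation p of 0.00378 and 0.0666 and adjusted values of 0.204 and 0.393, and r was 0.743 without MR4_5 and MXL12. Tiparp had r = 0.821 with the same score (exact permutation p = 0.0157, adjusted 0.256), which was 0.187 without MR4_5 and MXL12. With the skeletal muscle score Tiparp had r = -0.809 (exact permutation p = 0.00491, adjusted 0.204), which was -0.597 without MXL12 and MXL_3. Nqo1 had r = -0.793 with that muscle score (exact permutation p = 0.0114, adjusted 0.25). Gclm had a negative r of -0.861 with the macrophage score (rho -0.867, exact permutation p = 0.00626 for r, adjusted 0.204), and -0.825 with its 2 farthest libraries left out. This was not particular to macrophages. Gclm had r = -0.775 with the endothelial, -0.739 with the skeletal muscle and -0.735 with the red blood cell score. After the GC trend was subtracted, r with the macrophage score was -0.813 (exact permutation p = 0.0120, adjusted 0.274). That with the endothelial score was then -0.835 (exact permutation p = 0.00311, adjusted 0.135).

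Of the 13 marker lists, that of differentiated keratinocytes had the most genes with an unadjusted p under 0.05. Of its 12 markers, 11 had log2 fold changes above 0. An unadjusted p under 0.05 was found for 8 of the 12, where 1.53% of all tested genes had one. Their summed level was 3591 to 10380 CPM in the Model and 9196 to 18050 CPM in the FJDHF-M group. With the score of this list as a covariate the log2 fold change of Ahr was -0.69 (edgeR unadjusted p = 0.0378). In the same fit that of Cyp1a1 was -1.06 (edgeR unadjusted p = 0.0565) and that of Cyp1b1 was -0.30 (edgeR unadjusted p = 0.535). The score itself differed between the groups (exact permutation test, two-sided p = 0.0159). The lists were chosen with earlier results of these data known. This p, the 8 of 12 markers and the rank among the 13 lists are therefore descriptions and do not support a difference. Because the score went with the group, the part of these cells and that of the treatment cannot be told apart. Neutrophil markers, of which 0 of 7 lay above 0 and 1 had an unadjusted p under 0.05 in edgeR, had a median log2 fold change of -1.16, with overlapping scores (exact permutation p = 0.738). Fibroblast markers, of which 0 of 7 lay above 0 (median -0.42), had a summed level of 26420 to 47050 CPM in the Model and 18870 to 33530 CPM in the FJDHF-M group, and Cyp1b1 had r = 0.209 with their score (rho 0.367, exact permutation p = 0.551, adjusted 0.843).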

How the data were processed

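Back skin RNA of 4 Model and 5 FJDHF-M libraries was measured. The authors deposited whole-number read counts per gene for 55401 genes, not normalized. The authors also deposited FPKM values, scaled for gene length and depth, for 34637 genes. The submitters' processing notes name HISAT, StringTie, DESeq2 and mm10, and the annotation release and the use of strand in counting are not given in the sources used here. The 9 further count columns of the FPKM table equal the count table and were not used. Genes and lists were chosen with earlier results of these data known. Named genes were all members, the genes of each pathway list with an unadjusted p under 0.05 or otherwise its highest and lowest, and the 3 genes most correlated with Cyp1a1, Nqo1 and Hmox1. Keap1 and Kynu, and the genes named within exon overlaps, were chosen after their values were seen.

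The test on counts was edgeR 4.0.16 in R 4.3.3 (TMM after filterByExpr, robust quasi-likelihood fit, Benjamini-Hochberg adjustment). CPM values are TMM-scaled. Single levels and correlations used two-sided exact permutation tests on log2(CPM + 0.5). GC content and length came from the longest GENCODE M21 transcript, known for 99.9% of tested genes, and its trend per library was entered as an offset, an alternative chosen after seeing the data. A count of 3 or fewer, 0.0378 to 0.0402 CPM, was taken as the floor, which covers counting error only. Alternatives were DESeq2 1.42.0, limma 3.58.1, filters, covariates and leaving out each library. No libraries were near-duplicates, as the mean chi-square per gene between libraries of a group was at least 135, where counting alone gives 1. The steps were tested on simulated data. Figures were drawn with matplotlib 3.10.9.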

Additional observations from a re-analysis of the deposited data

Results flagged for a closer look

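In the Model group Tiparp was at 115.5 CPM in MXL12, and its gap to the next of the 4 libraries was larger than Dixon's critical share of the group's range. The same check over 21 measures in both groups (42 checks) found no other such value, and chance gives about 1 in 20. MXL12 also had the highest levels of Cyp1b1 and Nfe2l2 and of the neutrophil markers, and its part in the results was not tested beyond leaving it out.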

How the results depend on the processing

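No member had an adjusted p under 0.05 under any of the 20 alternatives to the edgeR fit. Over all genes, 2 were called by the DESeq2 Wald test and 0 by the other 19. The number of genes with an unadjusted p under 0.05 was 319, against 926 without a filter on low counts and 216 to 719 with 1 library left out, 719 being without MXL1. The number of members under that threshold was 1, against 0 to 1 with 1 library left out and 0 with limma on log2(FPKM + 1). After the GC trend was subtracted, 1 member (against 2.29% of all genes) passed the exact permutation test where 0 had (against 1.93%), and 3 pairs of members where 6 had. The log2 fold changes of Cyp1a1, Cyp1b1, Gclm and Tdo2 stayed below 0 throughout. For the other members the sign changed as follows, and the cause was not tested. With the skeletal muscle score as a covariate the values were 0.021 for Ahrr, 0.0062 for Tiparp, 0.027 for Nfe2l2 and 0.024 for Nqo1. With the differentiated keratinocyte score they were 0.020 for Tiparp, 0.31 for Nfe2l2 and -0.20 for Hmox1. With GC content offsets they were 0.015 for Ahrr, 0.015 for Nfe2l2 and -0.059 for Srxn1, and subtracting the GC trend gave mean differences of 0.0043 for Tiparp and -0.024 for Srxn1. Limma gave 0.055 for Nfe2l2, and at least 10 counts in every library gave 0.012 for Ahrr and 0.0044 for Nqo1. With 1 library left out the ranges were -0.19 to 0.074 for Ahr, -0.18 to 0.12 for Ahrr, -0.26 to 0.27 for Tiparp, -0.17 to 0.24 for Nfe2l2, -0.14 to 0.090 for Nqo1 and -0.11 to 0.15 for Srxn1. The codes of 3 libraries per group share a number (1, 3 and 3_4), and the correlations of their deviations were 0.33, 0.03 and -0.14, so the numbers were not taken as pairs. On these 6 libraries a replicate block left 0 members and 246 genes with an unadjusted p under 0.05, with log2 fold changes of -0.26 for Cyp1b1, 0.12 for Tiparp and 0.20 for Nfe2l2, and the same libraries without the block gave 0 members, 282 genes and -0.31, 0.13 and 0.20.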
